A study of Homo sapiens with 9 samples.

Results

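The enzymes that build cholesterol and fatty acids were followed in HCT116 cells with and without overexpression of the long non-coding RNA CRLM1. The set holds 36 of the 31558 genes in the count table and was taken by gene symbol from a written list. The rule uses no measured value, but the list was drawn up with earlier results of these data known, so its counts are a description. Of these, 20 belong to the mevalonate and cholesterol branch and 16 to fatty acid synthesis, desaturation, elongation and activation. The list does not hold every enzyme of these paths. Some enzymes outside it belong to other lists that are set beside the 36 below, and the rest were not analysed here. All 36 were present in every sample, with counts between 150 (ACACB) and 44424, so that each of them was tested in each comparison.

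HCT116 is an established human colorectal cancer line of epithelial origin. Cells with CRLM1 (LINC01767) overexpression were named CRLM1-OE. They were set beside cells with the empty plasmid (Ctrl) and cells with a plasmid that carries the antisense sequence of CRLM1 (Anti). The pTSB vector was used, cells grew in McCoy's 5A medium with fetal bovine serum, and polyA RNA was sequenced in 3 biological replicates per group, 9 samples in all. The paper describes the sequenced cells as transfected, and its methods also describe lentiviral transfer with puromycin selection. Whether each group is 1 stable line is therefore not certain, and the word line stands for a group below. The transgene and any other difference between the groups cannot be told apart, and p-values measure only the spread between replicates of these cells. The transgene was checked first. The counts of CRLM1 (RP4-710M16.2 in the tables) were 38704, 32751 and 35726 in CRLM1-OE and 0 in each Ctrl sample, and Anti had 1951, 1777 and 1540. Reads from the gene and from its antisense plasmid cannot be told apart in Anti, because the sources used here do not state whether strand entered the counting.

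Cholesterol is made from acetyl-CoA. Acetyl-CoA is condensed to HMG-CoA and reduced to mevalonate, which is phosphorylated and decarboxylated to isoprenoid units. These are joined to farnesyl diphosphate and squalene, and squalene is closed to lanosterol and trimmed to cholesterol. Fatty acid synthesis starts from the same acetyl-CoA, which is carboxylated to malonyl-CoA and built into palmitate, and palmitate is then elongated, desaturated and joined to coenzyme A. Both branches are textbook targets of the SREBP transcription factors, which stay in the endoplasmic reticulum with SCAP and the INSIG proteins while sterols are plentiful and reach the nucleus after cleavage when sterols run low. NF-Y, a factor that recognises the CCAAT box, is known to act together with SREBPs at many of these promoters.

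The 150 bases upstream of the annotated start are shown for the enzymes whose level differed at least 2-fold between groups and for GGPS1, which moved against the other sterol enzymes. RefSeq promoter windows (GRCh38.p14, 250 bases before to 50 after a start) were at hand for 32 of the 36 enzymes, in 49 windows, and for 8 of these 11. ACAT2, FDFT1 and SQLE belong to the 11 and are named without a sequence. FASN, which stayed under the 2-fold threshold, also had no window. Each stretch is written 5′ to 3′ on the strand of its gene, and capitals mark CCAAT or its reverse complement ATTGG.
HMGCS1, chr5:43313413-43313562, reverse strand: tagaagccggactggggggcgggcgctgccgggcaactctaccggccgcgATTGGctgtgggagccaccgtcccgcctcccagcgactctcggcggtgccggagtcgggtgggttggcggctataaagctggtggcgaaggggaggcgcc
IDI1, chr10:1049120-1049269, reverse strand: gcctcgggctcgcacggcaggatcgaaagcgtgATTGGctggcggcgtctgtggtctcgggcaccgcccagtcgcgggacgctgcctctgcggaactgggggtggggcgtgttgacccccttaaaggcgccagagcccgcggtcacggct
FDPS, chr1:155308716-155308865, forward strand: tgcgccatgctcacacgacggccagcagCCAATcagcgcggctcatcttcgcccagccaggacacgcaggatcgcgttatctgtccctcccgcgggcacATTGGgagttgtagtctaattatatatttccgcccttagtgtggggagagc
GGPS1, chr1:235328420-235328569, forward strand: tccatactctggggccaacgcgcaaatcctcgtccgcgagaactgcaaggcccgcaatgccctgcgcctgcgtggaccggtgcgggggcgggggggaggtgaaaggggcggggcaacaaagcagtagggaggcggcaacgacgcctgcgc
LSS, chr21:46228775-46228924, reverse strand: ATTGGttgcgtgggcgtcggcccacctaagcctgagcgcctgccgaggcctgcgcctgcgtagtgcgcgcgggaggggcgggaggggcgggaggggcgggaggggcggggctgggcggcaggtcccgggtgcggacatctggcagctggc
MSMO1, chr4:165327519-165327668, forward strand: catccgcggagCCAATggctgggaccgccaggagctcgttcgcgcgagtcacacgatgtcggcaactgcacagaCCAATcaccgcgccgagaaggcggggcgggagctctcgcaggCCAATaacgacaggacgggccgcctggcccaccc
DHCR7, chr11:71448394-71448543, reverse strand: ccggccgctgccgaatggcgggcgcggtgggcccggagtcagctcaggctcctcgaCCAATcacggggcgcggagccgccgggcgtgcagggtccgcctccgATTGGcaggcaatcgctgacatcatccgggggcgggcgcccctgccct
SCD, chr10:100347083-100347232, forward strand: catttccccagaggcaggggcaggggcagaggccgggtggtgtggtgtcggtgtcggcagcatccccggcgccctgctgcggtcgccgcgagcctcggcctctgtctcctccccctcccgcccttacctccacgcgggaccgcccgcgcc

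In GENCODE version 44 the stretches of IDI1 and SCD lie outside any exon, while between 2 bases (MSMO1) and 118 bases (FDPS) of the others fall in exons of other transcripts of the same gene. None of them overlaps an exon of another gene. The MSMO1 stretch holds 3 copies of CCAAT on either strand, those of FDPS and DHCR7 hold 2 each, and those of HMGCS1, IDI1 and LSS hold 1 each. GGPS1 and SCD have none in these 150 bases, although their full windows have the motif farther upstream. Over full windows, CCAAT on either strand was found for 24 of the 32 enzymes (75.0%) and for 39.7% of the 27305 genes in the table. The share was 14 of 17 among sterol enzymes (82.4%) and 10 of 15 among fatty acid enzymes (66.7%). A gene counts here when any of its windows holds the motif. By window, 28 of the 49 enzyme windows held CCAAT (57.1%), against 34.6% of the 35093 windows of all genes. This share was 66.7% for windows of sterol enzymes and 48.0% for those of fatty acid enzymes. The letters TCACNCCAC, a form of the sterol regulatory element, were found for 1 of the 32 enzymes (ACSL1, 3.12%) and for 1.39% of all genes, both strands searched. The looser CACNNCAC, which every such match contains, was found for 7 of the 32 (21.9%) and for 17.5% of all genes. These are matches of letters in a short window, without a test.

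The cells carried the epithelial markers of their label in all 9 samples. EPCAM was between 72.72 and 95.14 FPKM (fragments scaled for exon length and library size, the level scale used throughout), CDH1 between 19.92 and 22.49, KRT8 between 1280.68 and 1420.59, KRT18 between 424.29 and 838.68, and KRT19 between 2270.08 and 3256.82. Of the markers of other cell types, PTPRC (leukocytes), PECAM1 and VWF (endothelium) and ALB (hepatocytes) stayed at or below 0.08 FPKM, and CD3E was not among the genes of the tables used here. COL1A1, a fibroblast marker, was between 1.15 and 1.25 FPKM in Ctrl, between 1.25 and 1.38 in Anti and between 2.02 and 2.48 in CRLM1-OE. COL1A2, the other collagen gene among these markers, had 1 count in CRLM1-OE replicate 1, 0 in every Ctrl and Anti sample, and no FPKM value. The sum given next is therefore mostly COL1A1. The summed level of the 5 markers of other cell types with an FPKM value was 1.19 to 1.29 in Ctrl, 1.30 to 1.45 in Anti, and 2.14 to 2.56 in CRLM1-OE samples, and its part in the results below was not tested. By the test described below, 4 of the 5 epithelial markers were lower in CRLM1-OE than in Ctrl and none was higher, with a median of -0.24. Of all genes with mean counts of 100 or more, 38.8% were lower. KRT18 was lower in CRLM1-OE than in Ctrl by 1.00 on the log2 scale (fold change 0.501). In Anti against Ctrl, 2 of the 5 were lower and none was higher, where 28.9% of such genes were lower. In such bulk samples, fewer cells of a type and less RNA per cell cannot be told apart. Total counts were between 33302292 and 44514692 per sample, at which a floor of 3 counts equals 0.0674 to 0.0901 CPM (counts scaled to the library total).

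Fold changes below come from counts scaled by edgeR's TMM factors, and a gene passed the test of edgeR's quasi-likelihood fit when its p, adjusted by Benjamini-Hochberg over all genes tested, was 0.05 or less. The median log2 fold change over all genes was 0.02 in CRLM1-OE against Ctrl, and it was 0.16 when counts were scaled to library totals only. FPKM values carry no TMM factors, so a ratio of FPKM values exceeds the fold change given for CRLM1-OE. With 3 replicates per line, an exact two-sided permutation test on 1 gene has a smallest p of 0.1, so none was run on single levels. The comparisons of CRLM1-OE with Ctrl and with Anti share the CRLM1-OE samples, and the other pairs of comparisons likewise share a group.

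The enzymes were mostly higher in CRLM1-OE than in Ctrl. Of the 36, 29 rose, 4 fell and 3 did not pass the test, where 15.0% of all 29846 genes tested rose and 16.8% fell. All 36 enzymes have mean counts of 100 or more, and among all 11716 genes at this level 29.2% rose and 38.8% fell. The median log2 fold change of the enzymes was 0.48 (1.40-fold), with a range from -0.40 (FADS1) to 1.71 (IDI1). On TMM-scaled values the groups did not overlap for 34 of the 36 enzymes, 30 of them higher and 4 lower, against 37.5% of all genes tested and 72.1% of those with the higher counts. Rises of at least 2-fold were met by 7 enzymes, all of the sterol branch (ACAT2, HMGCS1, IDI1, FDFT1, SQLE, LSS and MSMO1), against 2.5% of all genes tested and 1.44% of those with the higher counts. No enzyme fell by 2-fold, against 0.915% and 0.64% in the same sets.

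By branch, the counts were as follows. In the sterol branch, 19 of 20 enzymes rose against Ctrl and GGPS1 fell, with a median of 0.72 (1.65-fold). In the fatty acid branch, 10 of 16 rose, 3 fell (ME1, FADS1 and ELOVL7) and 3 did not pass the test (FADS2, ELOVL5 and ELOVL6), with a median of 0.40 (1.32-fold). The difference between the branches itself was not tested.

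Against Anti, 31 of the 36 enzymes were higher, 4 were lower and GGPS1 did not pass the test. Of all 30183 genes tested, 17.1% were higher and 18.5% lower, and of the 11765 with mean counts of 100 or more 33.9% and 40.2%. The groups did not overlap for 35 enzymes, 31 higher and 4 lower, where 41.0% and 77.4% of these gene sets did not. The median log2 fold change was 0.64 (1.56-fold), with 0.98 in the sterol branch and 0.43 in the fatty acid branch. The 2-fold threshold was reached by 10 enzymes, against 3.09% and 1.94% of these gene sets, namely the 7 above with FDPS, DHCR7 and SCD. None was 2-fold lower (2.56% and 2.49%). All enzymes that were 2-fold higher than in Ctrl were thus also 2-fold higher than in Anti, and 29 of the 36 passed as higher than both control lines. The 3 enzymes that were lower than in both control lines were ME1, FADS1 and ELOVL7. The share of all genes with such joint calls was not counted, and shares of single comparisons do not give it.

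**Figure D1:**
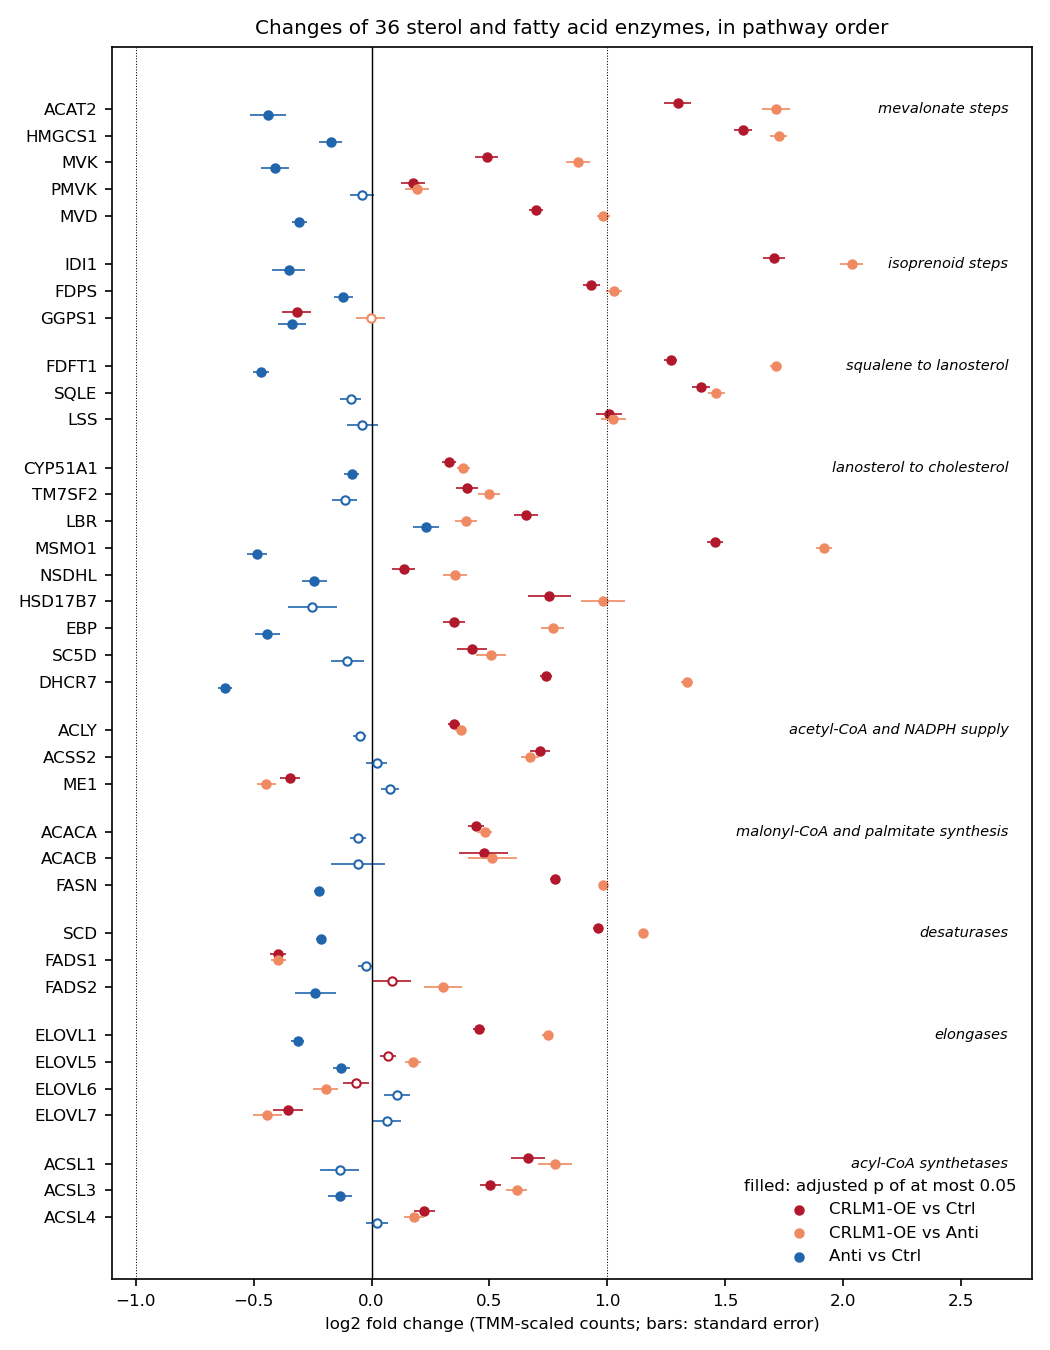
Log2 fold changes of the 36 enzymes in pathway order (horizontal axis, TMM-scaled counts, bars are standard errors), with filled points for an adjusted p of at most 0.05 and dotted lines at a 2-fold change. Dark red points (CRLM1-OE against Ctrl) and orange points (CRLM1-OE against Anti) lie mostly to the right of 0, with IDI1 farthest at 1.71 and 2.04, while blue points (Anti against Ctrl) stay between -0.62 and 0.23.

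Summed over the 36 enzymes, CRLM1-OE had a level of 1090 ± 9.39 FPKM, Ctrl of 622 ± 6.0 and Anti of 568 ± 1.30 (SD, n = 3 each). These sums were 0.257% to 0.260% of all FPKM in the CRLM1-OE samples, 0.140% to 0.144% in Ctrl and 0.133% to 0.134% in Anti. The sterol enzymes made up 560 ± 7.41, 294 ± 3.58 and 258 ± 1.83 FPKM, in the same order of groups. The fatty acid enzymes made up 530 ± 2.22, 328 ± 2.41 and 310 ± 2.82 FPKM. The sums are dominated by the most abundant enzymes, of which SCD, ELOVL1 and FASN had the highest means over the 9 samples.

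**Figure D2:**
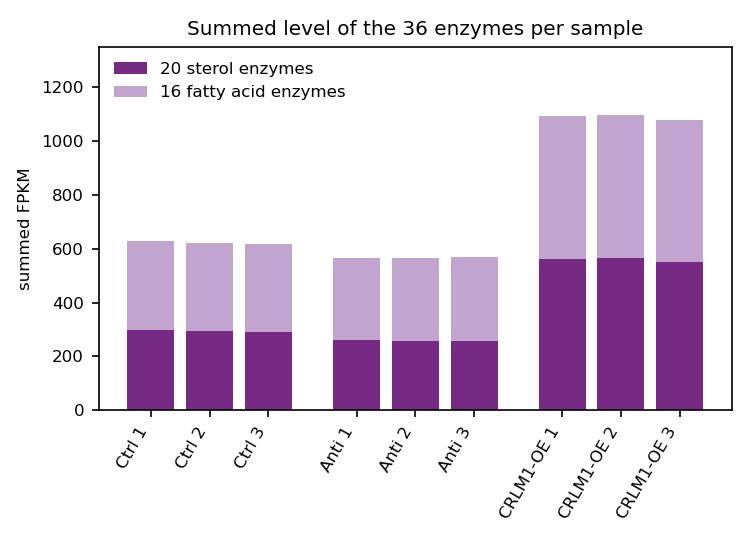
Summed FPKM of the 20 sterol enzymes (dark) and the 16 fatty acid enzymes (light) in each of the 9 samples, as stacked bars from 0. The 3 CRLM1-OE bars reach between 1079 and 1096, and the 6 control bars between 567 and 629.

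The mevalonate steps rose in all 5 enzymes. ACAT2 (ENSG00000120437.8, chr6:159762045-159779112), the thiolase that joins acetyl-CoA units in the cytosol, had 10.12, 9.72 and 9.96 FPKM in CRLM1-OE, 3.99, 3.64 and 3.53 in Ctrl, and 3.19, 2.59 and 3.01 in Anti. It was 2.46-fold higher than in Ctrl (log2 fold change 1.30, SE 0.057, adjusted p = 1.7e-112) and 3.28-fold higher than in Anti (1.71, SE 0.060). HMGCS1 (ENSG00000112972.14, chr5:43287470-43313512), the cytosolic HMG-CoA synthase, had 26.99, 26.06 and 26.89 FPKM in CRLM1-OE, 8.79, 8.03 and 7.92 in Ctrl, and 7.59, 7.97 and 7.87 in Anti. All 3 CRLM1-OE samples stood far above every control sample, with log2 fold changes of 1.57 (SE 0.038) against Ctrl and 1.73 (SE 0.036) against Anti, both at an adjusted p of 1e-300 or less. MVD, the decarboxylase that ends the mevalonate steps, was the most abundant of these enzymes, at 80.72, 81.52 and 80.21 FPKM in CRLM1-OE, 47.82, 44.80 and 45.32 in Ctrl, and 40.15, 39.53 and 39.16 in Anti. Its groups did not overlap, and its log2 fold changes were 0.70 (SE 0.029) and 0.98 (SE 0.028). The kinases between them changed less, by 0.49 and 0.87 for MVK and by 0.17 and 0.19 for PMVK against Ctrl and Anti.

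The isoprenoid steps held both the largest rise of the 36 enzymes and a fall. IDI1 (ENSG00000067064.10, chr10:1039152-1049119), the isomerase that makes the reactive isoprenoid unit, had 23.14, 22.63 and 22.63 FPKM in CRLM1-OE, 6.87, 6.20 and 6.24 in Ctrl, and 5.59, 5.54 and 5.01 in Anti. The CRLM1-OE samples were 3.26-fold above Ctrl (log2 fold change 1.71, SE 0.048, adjusted p = 3.2e-271) and 4.10-fold above Anti (2.04, SE 0.049). FDPS (ENSG00000160752.14, chr1:155308748-155320666), which makes farnesyl diphosphate, had 54.00, 55.59 and 52.01 FPKM in CRLM1-OE, 26.29, 26.15 and 25.74 in Ctrl, and 25.18, 25.34 and 26.18 in Anti. It lay just under the 2-fold threshold against Ctrl (0.93, SE 0.035) and just over it against Anti (1.03, SE 0.034). GGPS1 (ENSG00000152904.11, chr1:235327350-235344532) draws farnesyl diphosphate away to geranylgeranyl diphosphate, used for protein prenylation. Its levels were 5.33, 5.78 and 5.03 FPKM in CRLM1-OE, 6.39, 5.98 and 6.16 in Ctrl, and 5.23, 5.22 and 5.19 in Anti. Ctrl stood above both other lines, which overlapped each other: the log2 fold change was -0.32 (SE 0.060, adjusted p = 6.9e-07) against Ctrl, -0.34 (SE 0.061, adjusted p = 2.9e-07) in Anti against Ctrl, and -0.00 (SE 0.062, adjusted p = 0.99) in CRLM1-OE against Anti.

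All 3 enzymes from squalene formation to lanosterol rose at least 2-fold against both control lines. FDFT1 (ENSG00000079459.12), squalene synthase and the first enzyme committed to sterols, had 52.28, 51.52 and 50.95 FPKM in CRLM1-OE, 20.35, 19.29 and 19.70 in Ctrl, and 15.50, 15.14 and 15.05 in Anti. The 3 lines stood apart without overlap, with log2 fold changes of 1.27 (SE 0.028) against Ctrl, 1.71 (SE 0.026) against Anti and -0.47 (SE 0.033) in Anti against Ctrl. SQLE (ENSG00000104549.11), squalene epoxidase, had 31.93, 31.32 and 31.34 FPKM in CRLM1-OE, 11.08, 11.22 and 10.89 in Ctrl, and 12.26, 10.17 and 10.78 in Anti. Here the control lines overlapped, and CRLM1-OE was 2.63-fold above Ctrl (1.40, SE 0.037) and 2.75-fold above Anti (1.46, SE 0.035). LSS (ENSG00000160285.14, chr21:46188141-46228824), which closes the ring of lanosterol, had the lowest mean of the sterol enzymes over the 9 samples, although GGPS1 was lower in CRLM1-OE. The levels of LSS were 5.71, 5.73 and 6.04 FPKM in CRLM1-OE, 2.79, 2.48 and 2.74 in Ctrl, and 2.78, 2.62 and 2.92 in Anti. It sat at the 2-fold threshold, with 1.01 (SE 0.055, adjusted p = 1.2e-73) against Ctrl and 1.03 (SE 0.054, adjusted p = 3.2e-79) against Anti.

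The 9 enzymes from lanosterol to cholesterol all rose against both control lines, with medians of 0.42 against Ctrl and 0.51 against Anti. MSMO1 (ENSG00000052802.12, chr4:165327667-165343164), the methylsterol oxidase, stood out with 48.99, 50.80 and 48.56 FPKM in CRLM1-OE, 16.79, 17.02 and 16.10 in Ctrl, and 12.64, 12.84 and 12.50 in Anti. It was 2.74-fold above Ctrl (1.46, SE 0.033) and 3.78-fold above Anti (1.92, SE 0.033). DHCR7 (ENSG00000172893.15, chr11:71428193-71452868), the reductase of the last step of one route to cholesterol, was the most abundant of the 9. Its levels were 80.15, 81.82 and 77.84 FPKM in CRLM1-OE, 43.93, 44.09 and 44.70 in Ctrl, and 31.93, 30.21 and 29.72 in Anti. The 3 lines did not overlap, and DHCR7 had the largest fall of the enzymes in Anti against Ctrl, at -0.62 (SE 0.030, adjusted p = 6.0e-93). It was 0.74 above Ctrl and 1.34 above Anti on the log2 scale.

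The other 7 enzymes of these steps changed by less. Against Ctrl the log2 fold change was 0.75 for HSD17B7, a ketosteroid reductase, 0.65 for LBR, a sterol reductase that also binds lamin, and 0.42 for SC5D, the lathosterol desaturase. It was 0.41 for TM7SF2, a second sterol reductase of the same step as LBR, 0.35 for the isomerase EBP and 0.33 for the lanosterol demethylase CYP51A1. The smallest was that of NSDHL, a decarboxylating dehydrogenase, at 0.14 (SE 0.050, adjusted p = 0.024). This call did not hold without CRLM1-OE replicate 1 (0.12, adjusted p = 0.13), without CRLM1-OE replicate 2 (0.13, adjusted p = 0.070) or without Ctrl replicate 3 (0.11, adjusted p = 0.14). NSDHL was 0.36 above Anti (SE 0.051, adjusted p = 2.2e-11). LBR was the only one of the 36 that rose in Anti against Ctrl, with 8.33, 8.60 and 8.13 FPKM in CRLM1-OE, 5.01, 5.09 and 4.58 in Ctrl, and 5.77, 6.74 and 5.88 in Anti. Without Anti replicate 2, the highest of these Anti samples, this rise of 0.23 became 0.16 (adjusted p = 0.062).

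**Figure D3:**
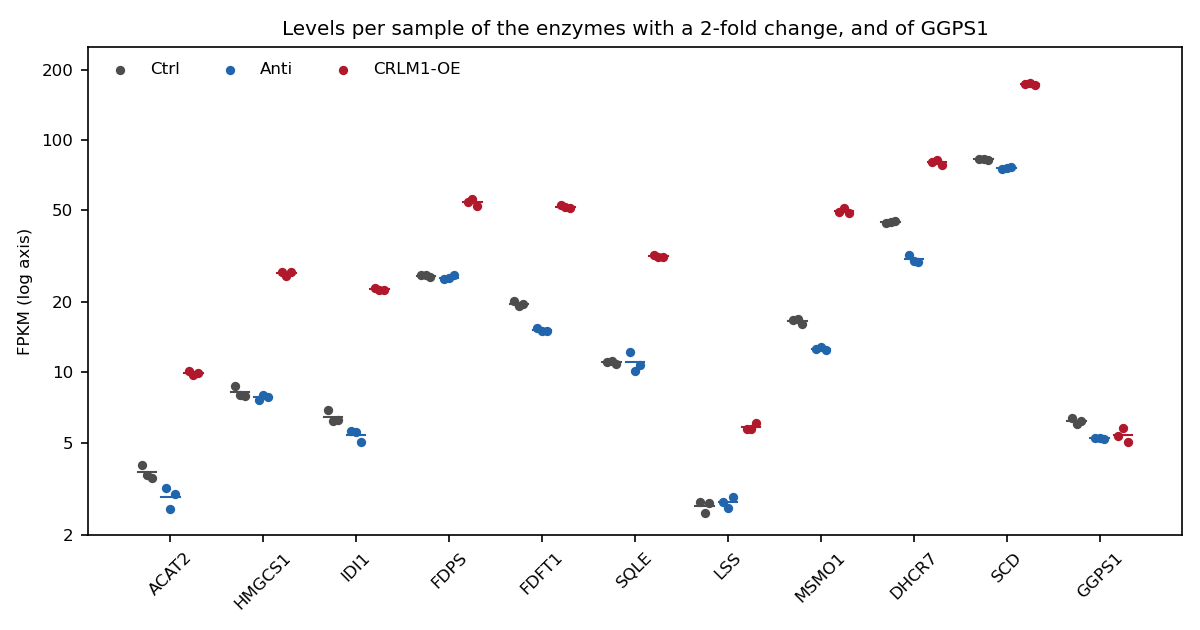
FPKM per sample (log axis) of the 10 enzymes with a 2-fold change against at least 1 control line, and of GGPS1, with grey points for Ctrl, blue for Anti and red for CRLM1-OE, and a line at each group's mean. Red points lie above all grey and blue points for the first 10 genes, whereas the red points of GGPS1 lie at 5.03 to 5.78, below the grey points at 5.98 to 6.39.

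Among the enzymes that supply acetyl-CoA and NADPH, ACLY, the ATP citrate lyase, was the most abundant, with 54.46, 52.91 and 53.60 FPKM in CRLM1-OE, 39.67, 38.54 and 38.50 in Ctrl, and 39.84, 40.26 and 39.99 in Anti. The CRLM1-OE samples lay above both control lines, by 0.35 (SE 0.025) and 0.38 (SE 0.023) on the log2 scale. ACSS2, which makes acetyl-CoA from acetate, rose more, by 0.72 and 0.67. ME1, the cytosolic malic enzyme, moved the other way, with 11.18, 11.27 and 10.19 FPKM in CRLM1-OE, 12.67, 12.67 and 12.97 in Ctrl, and 13.97, 14.91 and 14.20 in Anti. It fell by 0.35 on the log2 scale against Ctrl (SE 0.042, adjusted p = 1.8e-15) and was lower than in Anti (-0.45, SE 0.040, adjusted p = 6.2e-28).

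The carboxylases and the synthase all rose. FASN, the multi-domain enzyme that builds palmitate, had 93.57, 94.14 and 92.77 FPKM in CRLM1-OE, 50.89, 50.86 and 49.26 in Ctrl, and 45.67, 45.63 and 46.47 in Anti. Its 3 lines did not overlap, and it was 1.72-fold above Ctrl (0.78, SE 0.020) and 1.97-fold above Anti (0.98, SE 0.018), in each case under the 2-fold threshold. ACACA, the cytosolic acetyl-CoA carboxylase, rose by 0.44 and 0.48. ACACB, the carboxylase tied to mitochondria, was the only enzyme below 1 FPKM in every sample, with 0.68, 0.67 and 0.66 in CRLM1-OE, 0.47, 0.46 and 0.40 in Ctrl, and 0.44, 0.50 and 0.43 in Anti. On 150 to 307 counts per sample, it was 0.48 above Ctrl (SE 0.10, adjusted p = 3.2e-05) and 0.51 above Anti (SE 0.10, adjusted p = 4.0e-06).

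The desaturases did not move together. SCD (ENSG00000099194.5, chr10:100347233-100364826), which makes monounsaturated fatty acids, was the most abundant of all 36 enzymes, with 172.96, 174.98 and 172.40 FPKM in CRLM1-OE, 82.67, 82.41 and 81.90 in Ctrl, and 74.66, 75.75 and 76.40 in Anti. The 3 lines did not overlap, and its log2 fold changes were 0.96 (SE 0.020) against Ctrl and 1.15 (SE 0.018) against Anti, on either side of the 2-fold threshold. FADS1, a desaturase of polyunsaturated fatty acids, was lower in every CRLM1-OE sample, at 7.69, 7.82 and 8.19 FPKM, than in Ctrl, at 9.77, 9.47 and 9.59, and in Anti, at 10.14, 10.04 and 10.03. It had log2 fold changes of -0.40 (SE 0.034, adjusted p = 3.4e-30) and -0.40 (SE 0.032, adjusted p = 2.5e-34). FADS2, the other polyunsaturated desaturase, was 0.09 against Ctrl (adjusted p = 0.49; 0.23 and 0.016 with library totals) and rose by 0.30 against Anti (SE 0.082, adjusted p = 7.9e-04). FADS1 and FADS2 are neighbours on chromosome 11, and their genes share 5.6% and 5.1% of their exon bases with other genes in the annotation, including each other.

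The elongases differed among themselves. ELOVL1, which extends long saturated chains, was the second most abundant of the 36, with 119.04, 118.38 and 119.78 FPKM in CRLM1-OE, 80.34, 79.80 and 80.26 in Ctrl, and 68.09, 67.24 and 71.02 in Anti. The lines did not overlap, and ELOVL1 rose by 0.46 (SE 0.026) against Ctrl and 0.75 (SE 0.024) against Anti. ELOVL5, which extends polyunsaturated chains, was 0.07 against Ctrl (adjusted p = 0.13) and rose by 0.17 against Anti (adjusted p = 7.2e-07). Its value against Ctrl passed when low genes were left out (0.09, adjusted p = 0.010, with at least 10 counts in every sample) or counts were scaled to library totals (0.21, adjusted p = 1.4e-08). ELOVL6, which extends palmitate, had -0.07 against Ctrl (adjusted p = 0.44), a value that turned to 0.08 when counts were scaled to library totals, and -0.19 against Anti (adjusted p = 0.0011). ELOVL7 had 3.32, 3.37 and 3.11 FPKM in CRLM1-OE, 4.24, 3.78 and 3.49 in Ctrl, and 3.95, 4.28 and 4.69 in Anti. Its highest CRLM1-OE sample lay close under its lowest Ctrl sample, and the fall of 0.35 (SE 0.064, adjusted p = 2.2e-07) did not pass with limma on log2(FPKM + 0.1), where the adjusted p was 0.079. The call of ELOVL6 against Anti was lost in the same test (adjusted p = 0.055).

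The acyl-CoA synthetases, which join free fatty acids to coenzyme A, rose in all 3 members against both control lines. ACSL4, the synthetase with a preference for arachidonic acid, rose by 0.22 (SE 0.045) against Ctrl and 0.18 (SE 0.043) against Anti. It had the highest mean of the 3 over the 9 samples, although ACSL3 was higher in CRLM1-OE. The levels of ACSL4 were 7.54, 6.75 and 6.84 FPKM in CRLM1-OE, 5.48, 5.77 and 5.51 in Ctrl, and 5.71, 6.20 and 6.23 in Anti. ACSL1 and ACSL3 changed more, by 0.66 and 0.50 against Ctrl and by 0.78 and 0.62 against Anti.

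The control lines differed from each other in the same set, and by less. Of the 36 enzymes, 19 were lower in Anti than in Ctrl, LBR was higher and 16 did not pass the test. Of all 29714 genes tested, 12.2% were lower and 11.5% higher, and among the 11623 genes with mean counts of 100 or more the shares were 28.9% and 25.3%. No enzyme reached 2-fold (0.683% of all genes tested did so upward and 0.38% downward, and 0.0946% and 0.0344% of those with the higher counts), and the median log2 fold change was -0.13. When counts were scaled to library totals, 13 enzymes were lower and 7 higher, with a median of -0.03, since this scaling moved the median of all genes from 0.00 to 0.11. The falls of DHCR7 (-0.62), MSMO1 (-0.49), FDFT1 (-0.47), EBP (-0.44), ACAT2 (-0.44) and MVK (-0.41) were the largest. The groups did not overlap for 24 enzymes, 20 lower and 4 higher in Anti, against 31.0% of all genes tested and 61.6% of those with the higher counts. The sterol branch held 13 of the lower enzymes and the fatty acid branch 6. In CYP51A1 the fall of 0.08 (adjusted p = 0.040) turned to a rise of 0.02 with library totals and missed the threshold in 5 of the 6 fits without 1 library. The calls of FADS2 and ACSL3 were each lost in 4 of these 6 fits, that of FDPS without Anti replicate 1 (adjusted p = 0.078) or Ctrl replicate 2 (0.085), and that of HMGCS1 without Ctrl replicate 1 (0.097). By the tests of all 3 comparisons together, 16 enzymes had CRLM1-OE above Ctrl and Ctrl above Anti. Another 12 had CRLM1-OE above both without a passed difference between Ctrl and Anti. How many of all genes show these joint patterns was not counted, so the 2 numbers are a description only.

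Genes that regulate these enzymes also differed between the lines. INSIG1, which holds SREBPs in the endoplasmic reticulum and is itself an SREBP target, had 37.27, 39.33 and 37.53 FPKM in CRLM1-OE, 5.39, 5.99 and 5.84 in Ctrl, and 2.53, 2.97 and 3.02 in Anti. The 3 lines were far apart, by 2.62 (SE 0.039) against Ctrl, 3.70 (SE 0.043) against Anti and -1.11 (SE 0.071, adjusted p = 3.1e-52) in Anti against Ctrl. SREBF2, which encodes the SREBP of sterol genes, had 85.23, 85.11 and 83.16 FPKM in CRLM1-OE, 50.44, 48.68 and 49.83 in Ctrl, and 33.46, 33.54 and 34.94 in Anti. It kept the order CRLM1-OE, Ctrl, Anti without overlap, at 0.65 against Ctrl, 1.27 against Anti and -0.64 (SE 0.024) in Anti against Ctrl. SREBF1, which encodes the SREBPs best known for fatty acid genes, had another order, with 26.26, 26.04 and 26.18 FPKM in CRLM1-OE, 16.62, 16.84 and 16.55 in Ctrl, and 23.16, 22.74 and 22.84 in Anti. Its level in Anti was above Ctrl (0.37, SE 0.031) and closer to CRLM1-OE (0.15, SE 0.027).

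Of the 12 genes in the list that holds SREBP regulators and genes of sterol handling, 7 rose, 2 fell and 3 did not pass the test against Ctrl, with a median of 0.56, where 15.0% of all genes tested and 29.2% of those with mean counts of 100 or more rose. Besides INSIG1 and both SREBF genes, STARD4, a sterol carrier, rose by 1.45. The members that fell were MBTPS1 (-0.25) and MBTPS2 (-0.47, which missed the threshold in an alternative at an adjusted p of 0.066), the proteases that release SREBPs. SCAP (-0.05, adjusted p = 0.35) and INSIG2 (-0.06, adjusted p = 0.52) did not pass. Against Anti, 8 rose and 2 fell, with a median of 0.58, where 17.1% and 33.9% of these gene sets rose.

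Lists of neighbouring lipid paths had smaller medians than the enzymes. Against Ctrl, 12 genes of isoprenoid use (prenyltransferases, dolichol and ubiquinone synthesis) had a median of -0.23, with 7 lower and DHDDS alone higher (0.12, adjusted p = 0.0093, and up to 0.10 in the alternatives). ZMPSTE24, a protease of prenylated lamin, was the lowest of them, at -0.77 (SE 0.057) against Ctrl and -1.16 (SE 0.052) against Anti. Other enzymes of fatty acid chains had 4 of 22 entries higher and 10 lower, among them the citrate carrier SLC25A1 at 0.63 (and 1.04 against Anti). The isozymes ACAT1 and ACSL5, named here after their values were seen, were at -0.24 (adjusted p of up to 0.061 in the alternatives) and -0.58, whereas ACAT2 and the other 3 ACSL genes described above rose. All these counts stand beside 29.2% of genes higher and 38.8% lower at mean counts of 100 or more, and 15.0% and 16.8% of all genes tested. Fatty acid oxidation had 4 of 20 higher and 8 lower, glycerolipid and sterol ester synthesis 4 of 12 higher and 5 lower, and LXR and efflux 1 of 5 each way. In glycerolipid synthesis LPIN1, a phosphatidate phosphatase, reached 0.93 against Ctrl and 1.23 against Anti. With library totals, the counts higher and lower became 9 and 5 for oxidation, 6 and 3 for other chain enzymes, 7 and 1 for glycerolipid synthesis, 2 and 5 for isoprenoid use, 2 and 1 for LXR, and 9 and 2 for SREBP regulators. The balance of calls in the oxidation, other chain and glycerolipid lists thus changed with the scaling, and the medians of all but isoprenoid use were then above 0. These 3 medians became 0.14, 0.13 and 0.18. The same scaling put the median of all genes tested at 0.16, and at 0.10 for those with mean counts of 100 or more. The share of all genes called under this scaling was not counted, so these counts are a description only.

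**Figure D4:**
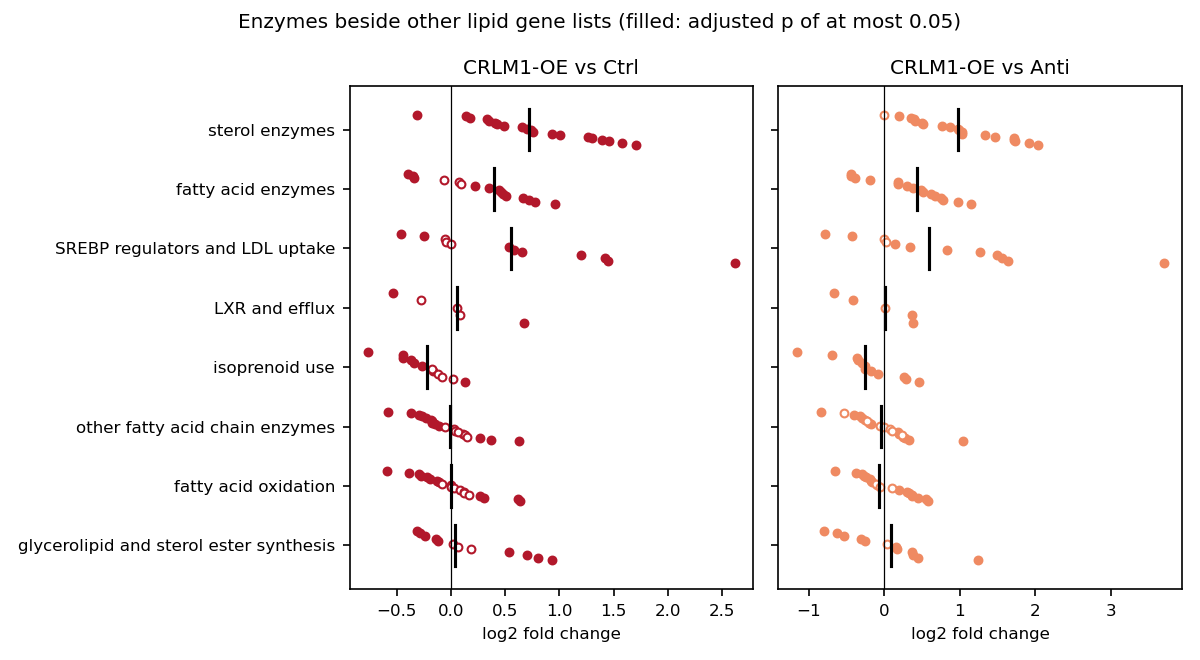
Log2 fold changes of single genes in 8 lists, in CRLM1-OE against Ctrl (left) and against Anti (right), with filled points for an adjusted p of at most 0.05 and black bars at list medians. The sterol enzymes have medians of 0.72 and 0.98, and the isolated point at the far right is INSIG1 (2.62 and 3.70). ELOVL2 and HACD4, with at most 2 counts in a sample, enter the median of their list but are not drawn.

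Several enzymes share sequence with other genes, which can split or mix their reads. In GENCODE version 44, 19 of the 36 share at least 1 exon base with another gene and 7 share over 10% of their exon bases. These 7 are CYP51A1 (74.1%, with AKAP9 among the partners), GGPS1 (41.0%, with ARID4B among them), HMGCS1 (37.7%), EBP (36.4%), ACAT2 (22.2%, with TCP1 and SOD2 among them), FDPS (18.6%, with RUSC1-AS1) and IDI1 (15.0%, with IDI2-AS1). TCP1 had a log2 fold change of -0.19 and SOD2 of -0.32 against Ctrl, while ACAT2 rose. RUSC1-AS1, antisense to FDPS, was at 0.25 to 0.32 FPKM in Ctrl and 0.64 to 0.97 in CRLM1-OE, far under FDPS, and rose by 1.28 (SE 0.19). AKAP9 rose by 0.54 (SE 0.095) at no more than 0.56 FPKM, and IDI2-AS1 stayed at or below 0.18 FPKM. HSD17B7P2, a pseudogene close in sequence to HSD17B7, rose by 1.12 (SE 0.13), and the split of reads between this pair is uncertain.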

How the data were processed

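PolyA RNA of HCT116 cells (CRLM1-OE, Ctrl and Anti, 3 replicates each) was sequenced as paired-end reads. The authors trimmed reads with the FASTX-Toolkit, aligned them to GRCh38 with TopHat2 and deposited, for each gene of Gencode version 23, the count of its uniquely mapped reads and its FPKM to 2 decimals. The tables hold expressed genes in the authors' definition, whose criterion is not given in the sources used here. Nor is it given there whether strand was used or a read pair was counted once. No column of other samples was present.

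Groups and replicate numbers came from the labels. The test was the quasi-likelihood test of edgeR 4.0.16 under R 4.3.3, with TMM factors, on the 6 samples of each comparison, without covariates, for every gene with at least 1 count, with Benjamini-Hochberg adjustment. SE is the log2 fold change over the root of F. Adjusted p-values under 1e-300 are written as 1e-300. The fits had been tested on simulated data that held known changes. The 3-count floor covers counting error only, whereas SE includes the fitted spread between replicates.

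The members and lists were chosen with earlier results of these data known. Per-sample values are given for enzymes with a 2-fold change at an adjusted p of at most 0.05, the most abundant of each role, those that moved against most of their role, and those below 1 FPKM throughout. Of other lists, SREBF1, SREBF2, INSIG1 and genes with a 2-fold change and a mean count of at least 100 are named, except some that are not reported here, and other genes were named after their values were seen. Markers stand apart from this rule. Genes that share exons were added after the files were examined.

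The alternatives were RLE factors, library totals without factors, filterByExpr, at least 10 counts in every sample, DESeq2 1.42.0, limma 3.58.1 on log2(FPKM + 0.1) and log2(FPKM + 1), all 9 samples in 1 fit, the replicate number as a block, and each replicate left out. Positions came from GENCODE version 44 on GRCh38, promoters from RefSeq, and figures from matplotlib 3.10.9 under Python 3.11.15 with pandas 2.3.3.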

Additional observations from a re-analysis of the deposited data

How the results depend on the processing

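All 36 enzymes had counts in every sample, and whether depth limited single calls was not tested. The 3 replicates per group do not show how other lines would vary. Against Ctrl and Anti, the numbers of higher enzymes stayed at 28 to 31 and at 31, those 2-fold higher at 6 to 9 and 9 to 13, and the medians at 0.47 to 0.62 and 0.57 to 0.70 over all alternatives. Replicate numbers did not pair the samples (mean residual correlation 0.0054 for equal and -0.0027 for different numbers). The replicate block gave 29, 31 and 1 higher enzymes and 7 and 10 that were 2-fold higher in the order of the comparisons, as without it, and changed no call of an enzyme.

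Anti against Ctrl depended more on the settings. The number of higher enzymes was 2 with all 9 samples in 1 fit, 4 with either limma fit and 7 with library totals, and 0 to 1 without single replicates. Lower enzymes numbered 12 with either limma fit, and 15 to 18 without single replicates. The median became -0.040 (limma, 0.1), -0.032 (limma, 1) and -0.027 (library totals), and was -0.16 to -0.11 without single replicates.

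Signs turned only at small values. In Anti against Ctrl, limma with 0.1 and with 1 gave 0.050 and 0.048 for PMVK, 0.053 and 0.040 for LSS, 0.0077 and 0.0074 for CYP51A1, 0.041 and 0.040 for ACLY, 0.035 and 0.030 for ACACA, 0.035 and 0.013 for ACACB, and 0.067 and 0.061 for FADS1. Library totals gave 0.064 for PMVK, 0.016 for SQLE, 0.065 for LSS, 0.020 for CYP51A1, 0.0017 for SC5D, 0.054 for ACLY, 0.047 for ACACA, 0.045 for ACACB and 0.081 for FADS1. This value of FADS1 passed as a rise (adjusted p = 0.047 in the quasi-likelihood test), the only turned sign that did. The fit of all 9 samples gave 0.0011 for FADS1. Without single replicates, ACSL4 ranged from -0.00052 to 0.062 and PMVK from -0.073 to 0.013. GGPS1 against Anti was 0.0068 with DESeq2, 0.0056 with RLE factors, 0.012 with the 10-count filter, 0.0042 with filterByExpr, 0.042 and 0.037 with limma, 0.056 with library totals, and -0.051 to 0.051 without single replicates. ELOVL6 against Ctrl was 0.050 and 0.039 with limma and 0.076 with library totals. These fits differ from the TMM fit in scaling, filter or samples, and the cause of each turn was not tested.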
